A study of Homo sapiens with 2 samples.

Results

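The binding of RFX6 at the genes of the apoptosis machinery was examined in a chromatin immunoprecipitation sequencing (ChIP-seq) peak list. The 47 genes encode BCL2 family proteins, caspases, inhibitor of apoptosis (IAP) proteins, death receptors with their adaptors, mitochondrial death factors and DNA fragmentation factors. They were taken from a list of names, and all 47 were found among 20037 protein-coding genes of the RefSeq gene table (GRCh38.p14). The list came from 1 ChIP library of MHCC-97H, a cell line derived from a human hepatocellular carcinoma (HCC), in which RFX6 with an HA tag was expressed from a plasmid and precipitated through the tag. The series also holds 1 input library of the same cells, which is chromatin without precipitation and was not analysed here. RFX6 belongs to the regulatory factor X (RFX) proteins, which are transcription factors. The list covers this cell line only, no cells without the tagged protein were compared, and there was no replicate, so that no difference between conditions could be tested and no replicate error can be given. The read depth behind the peaks is unknown.

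A member was counted when a distinct interval shared at least 1 bp with the gene or with the flanking 1 kb on either side. The list held 5019 distinct intervals on chromosomes 1 to 22 and X, with a median width of 272 bp. Each carried a whole-number score, whose meaning is not stated and which was used here only to rank intervals within the list. Its median was 30, with quartiles of 22 and 39 and a range from 13 to 170.

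As background, apoptosis runs along an intrinsic and an extrinsic route. In the intrinsic route, BH3-only proteins sense stress and neutralise the prosurvival BCL2 proteins, so that the effectors BAX and BAK1 open the outer mitochondrial membrane. Cytochrome c then escapes, assembles with APAF1 into the apoptosome and activates the initiator caspase-9, while SMAC/DIABLO relieves caspases from the IAP proteins. In the extrinsic route, ligands of the tumour necrosis factor family bind death receptors, which recruit adaptors such as FADD and TRADD and the initiator caspases 8 and 10. Liver cells are known for their sensitivity to death receptor ligands, and resistance to apoptosis is a common trait of HCC cells.

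Of the 47 genes, 12 had an interval (25.5%, 95% Wilson interval 15.3% to 39.5%), and 35 had none. They were BCL2L11, BAD, BMF, BBC3, CASP9, CYCS, DIABLO, ENDOG, BIRC6, TNFRSF1A, TRADD and RIPK1. Among all protein-coding genes, 3935 of 20037 had an interval by the same count, which was 19.6% and lay inside the interval of the members. At a gene end, that is within 1 kb of the first or last base of the gene, 6 members had an interval (12.8%, 5.98% to 25.2%), compared with 15.9% of all protein-coding genes. The 6 were CASP9, CYCS, ENDOG, BIRC6, TRADD and RIPK1. Neither share of the members thus differed from the background beyond the counting error of 47 genes. Confidence intervals cover the counting of genes only. The 47 genes were chosen with earlier results of these data known, which the confidence intervals do not take into account.

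The members were then counted by role, with numbers too small to compare roles with each other or with the background. An interval was found at 4 of 8 BH3-only genes and at 3 of 6 genes for apoptosome and mitochondrial factors. Death receptors, their ligand and adaptors had 3 of 9, caspases 1 of 7, and IAP proteins 1 of 5. There was none at the 5 prosurvival genes, the 3 pore-forming effectors, the 2 other BCL2 family genes and the 2 DNA fragmentation factors. All 4 BH3-only genes carried their interval inside the gene and away from its ends.

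**Figure D1:**
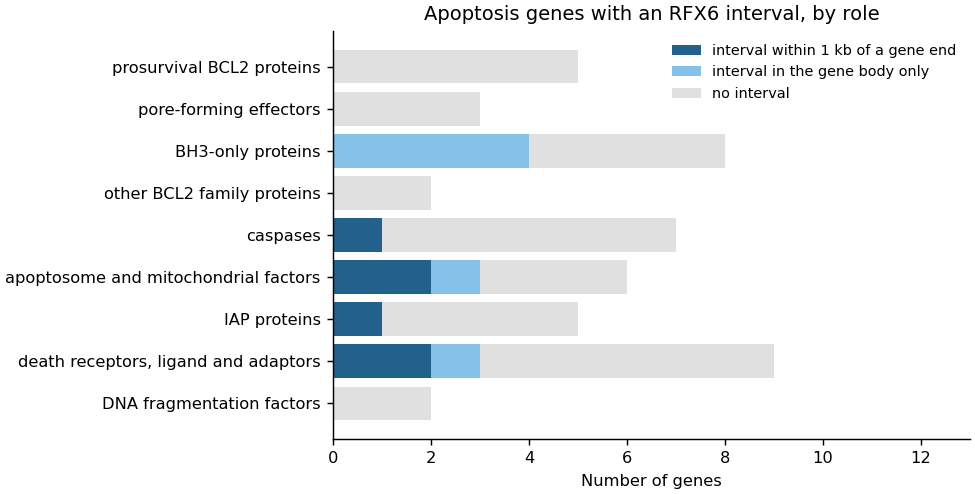
Number of apoptosis genes (x axis) in each role (y axis) with an interval within 1 kb of a gene end (dark blue), with an interval in the gene body only (light blue) or with none (grey). The 4 BH3-only genes with an interval had it in the body, while the prosurvival, pore-forming, other BCL2 family and DNA fragmentation genes had none.

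For the 6 genes with a promoter window that an interval reached, 1 window each is shown in the next lines. TRADD also had intervals at a gene end but has no window in the promoter table, so it could not be included. Each window is the RefSeq sequence (GRCh38.p14) from 250 bases before to 50 bases from the annotated start site on, written along the strand of the gene. Capitals mark the bases inside a deposited interval. CASP9, BIRC6 and DIABLO each had a second overlapped window, which is not printed. The window given is the one whose start site lay inside an interval, and for CASP9, where both did, the one with more bases covered. For RIPK1, where the interval begins after the start site, only the 100 bases around the start are given. The windows are chr1:15524166-15524465 (minus strand) for CASP9, chr7:25125211-25125510 (minus) for CYCS, chr9:128818250-128818549 (plus) for ENDOG, chr12:122226003-122226302 (minus) for DIABLO and chr2:32356773-32357072 (plus) for BIRC6. RIPK1 is on the plus strand of chromosome 6, with its start at 3063967.
CASP9: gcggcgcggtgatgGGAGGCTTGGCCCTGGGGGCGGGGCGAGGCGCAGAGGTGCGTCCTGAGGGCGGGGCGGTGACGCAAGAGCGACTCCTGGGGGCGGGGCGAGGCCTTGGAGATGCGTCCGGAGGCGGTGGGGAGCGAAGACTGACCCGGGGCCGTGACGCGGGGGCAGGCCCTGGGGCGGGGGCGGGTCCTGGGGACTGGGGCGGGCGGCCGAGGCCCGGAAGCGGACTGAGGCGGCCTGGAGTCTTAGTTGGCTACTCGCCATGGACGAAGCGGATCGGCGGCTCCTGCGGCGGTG
CYCS: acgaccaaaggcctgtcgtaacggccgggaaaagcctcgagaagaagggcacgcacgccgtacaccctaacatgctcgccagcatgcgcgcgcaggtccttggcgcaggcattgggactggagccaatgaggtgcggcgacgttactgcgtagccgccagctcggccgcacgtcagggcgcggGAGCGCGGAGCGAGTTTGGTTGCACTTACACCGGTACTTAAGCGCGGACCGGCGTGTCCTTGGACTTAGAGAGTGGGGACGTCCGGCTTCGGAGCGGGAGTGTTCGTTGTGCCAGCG
ENDOG: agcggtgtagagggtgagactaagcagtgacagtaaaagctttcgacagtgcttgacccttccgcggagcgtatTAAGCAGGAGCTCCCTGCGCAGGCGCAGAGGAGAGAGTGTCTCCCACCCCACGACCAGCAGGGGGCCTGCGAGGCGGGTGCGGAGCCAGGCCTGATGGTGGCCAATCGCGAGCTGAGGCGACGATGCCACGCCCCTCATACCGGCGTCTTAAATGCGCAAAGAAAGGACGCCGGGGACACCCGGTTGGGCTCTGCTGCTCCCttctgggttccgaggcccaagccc
DIABLO: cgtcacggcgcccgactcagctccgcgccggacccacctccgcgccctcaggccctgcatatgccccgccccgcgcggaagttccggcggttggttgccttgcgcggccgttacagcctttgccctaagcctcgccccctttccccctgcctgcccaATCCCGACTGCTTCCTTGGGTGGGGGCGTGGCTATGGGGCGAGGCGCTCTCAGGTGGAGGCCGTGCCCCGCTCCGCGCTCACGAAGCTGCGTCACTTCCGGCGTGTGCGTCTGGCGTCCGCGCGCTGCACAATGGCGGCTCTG
BIRC6: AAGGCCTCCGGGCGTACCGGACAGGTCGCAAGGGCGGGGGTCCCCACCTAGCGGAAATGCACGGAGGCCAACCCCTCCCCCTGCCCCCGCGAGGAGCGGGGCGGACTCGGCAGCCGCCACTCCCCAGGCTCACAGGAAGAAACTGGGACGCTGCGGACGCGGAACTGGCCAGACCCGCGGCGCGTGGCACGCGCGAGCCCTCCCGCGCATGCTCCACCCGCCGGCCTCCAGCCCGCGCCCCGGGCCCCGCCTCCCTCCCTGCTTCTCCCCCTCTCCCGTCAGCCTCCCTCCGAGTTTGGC
RIPK1: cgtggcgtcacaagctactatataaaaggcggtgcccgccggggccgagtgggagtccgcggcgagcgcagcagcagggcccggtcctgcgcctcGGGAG

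These windows differ in how far the interval reaches. At BIRC6 all 300 bases lay inside the interval. At CASP9 it was 286 of 300, at ENDOG 202, at DIABLO 143 and at CYCS 117, while at RIPK1 only the last 5 bases of the window were covered. At CYCS and DIABLO the covered part included the start site and the bases downstream up to the end of the window, and at ENDOG it included the start site but not the last bases.

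RFX proteins are known to bind the X-box, a pair of half-sites that face each other. The half-sites GTTGCC and GTTACC were therefore searched on both strands of the promoter windows, together with the GC box GGGCGG and the ETS core CCGGAAG, which are common in promoters of broadly expressed genes. A total of 37 members had at least 1 start site in the promoter table, with 66 windows, and 9 windows of 6 genes were overlapped by an interval. A half-site was present in 1 of these 9 windows (11.1%), compared with 10 of 57 member windows without an interval (17.5%) and 17.7% of all 22199 promoter windows of protein-coding genes. The 1 window was that of DIABLO, where GTTGCC began 157 bases before the start site, outside the interval. No member window held a pair of facing half-sites with 0 to 3 bases between them, and 0.329% of all windows did. Windows of 1 gene can share bases, so these counts are not independent. Only promoter windows were searched. The intervals at BCL2L11, BAD, BMF, BBC3, TNFRSF1A and TRADD, and the second interval at ENDOG, lay wholly outside the member windows. Other member intervals lay partly outside. The counts therefore cannot tell whether the member intervals hold a half-site.

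The GC box was found in 6 of the 9 overlapped windows (66.7%), in 38 of 57 others (66.7%), and in 56.3% of all promoter windows. Among the 2285 windows of all protein-coding genes that an interval overlapped, it was present in 81.4%. The CASP9 window printed above held 8 matches, all of them inside an interval, and the second CASP9 window held 9, of which 3 were inside one. The printed BIRC6 window held 2 matches inside the interval, and the second DIABLO window held 1 inside it. At RIPK1 and in the printed DIABLO window, every GC box lay outside the interval. The ETS core was present in 3 of the 9 windows (33.3%), in 3 of 57 others (5.26%), in 12.8% of all windows and in 21.4% of the windows of all genes that an interval overlapped. It lay inside the interval at CASP9 and DIABLO but outside it in the second BIRC6 window. A match is only a run of letters, and its use by a protein was not examined. The median GC content was 71.7% in the 9 windows, 61.7% in the other 57, 69.7% in all overlapped windows and 62.3% in all windows.

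Turning to single genes, the BH3-only proteins were considered first. BCL2L11 encodes BIM, which binds the prosurvival proteins. A single interval of 260 bp with a score of 28, on chromosome 2 from 111122522 to 111122781, lay 1608 bp downstream of the gene's start. BBC3 encodes PUMA, a strong trigger of the intrinsic route. On chromosome 19, from 47230056 to 47230257, it carried an interval 2603 bp inside the gene, with a score of 13 that was the lowest in the list. BMF encodes a BH3-only protein linked to the cytoskeleton. The BMF interval (chromosome 15, 40103408 to 40103805) was 398 bp wide with a score of 18, and its middle was 3360 bp downstream of the nearer of 2 annotated start sites. All 3 intervals were thus downstream of the start, and none had a score above the median of the list.

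BAD encodes a BH3-only protein that is controlled by phosphorylation through survival kinases. With a score of 21, the BAD interval was located on chromosome 11 from 64271454 to 64271704. It lay 13000 bp from the gene's start and 1626 bp from its far end. The same interval lay in GPR137, which runs on the other strand, and was 923 bp downstream of the start of that gene. It can therefore not be told which of these genes, if any, the BAD interval belongs to, and by the nearest gene end it went to GPR137. The BH3-only genes without an interval were BID, BIK, PMAIP1 and HRK.

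The intrinsic route after the mitochondrion was next. CASP9 encodes the initiator caspase of the apoptosome. It carried a pair of intervals near its start on chromosome 1, from 15524127 to 15524451 and from 15524533 to 15524844, which were 325 and 312 bp wide and had the same score of 37 (percentile 66.4 of the list). A gap of 81 bp separated them. Each spanned 1 of the 2 start sites annotated for CASP9, at 15524215 and 15524790. Both start sites of CASP9 were thus inside intervals, while the other 6 caspase genes (CASP1, CASP2, CASP4, CASP6, CASP8 and CASP10) had no interval. Among all protein-coding genes 19.6% had an interval, and the 7 caspase genes are too few to compare with that share.

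CYCS encodes cytochrome c, which carries electrons in respiration and triggers the apoptosome once released. A 364 bp interval on chromosome 7, from 25124964 to 25125327, scored 39 (percentile 71.4) and spanned the start site at 25125260. The nearest end of another protein-coding gene was that of SPMIP4, 445 bp away, and was the far end of that gene. APAF1, the scaffold that cytochrome c joins, had no interval within the gene or beside it, and the nearest was 129574 bp away. Of the 3 apoptosome genes, CYCS and CASP9 thus had an interval and APAF1 had none. These 3 genes are too few to compare with the 19.6% of all protein-coding genes that had an interval.

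DIABLO encodes SMAC, which counteracts the IAP proteins. The interval there, on chromosome 12 from 122225850 to 122226145, was 296 bp wide and listed on 2 lines with the same score of 31. The interval lay 1311 bp from the gene's outermost end and therefore counted as intragenic, yet it spanned the start site at 122226052, 1 of 4 annotated for DIABLO. It was also 285 bp from the end of LOC128125816, a short gene on the same strand that the table lists as protein-coding, and by the nearest gene end it went to that gene. ENDOG encodes endonuclease G, a mitochondrial nuclease that can move to the nucleus. Its first interval on chromosome 9, from 128818324 to 128818525, was 202 bp wide with a score of 22 and spanned the start site at 128818500. The second, from 128818803 to 128819119, scored 13 and lay 303 bp downstream of the start and 532 bp from the far end of SPOUT1. HTRA2 and AIFM1, the other mitochondrial factors, had no interval.

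**Figure D2:**
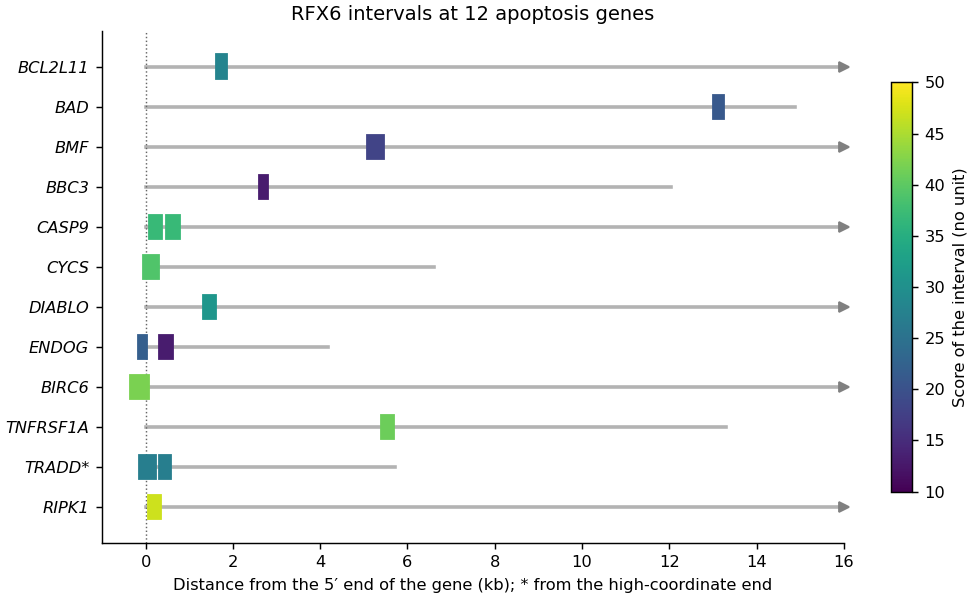
Position of the 15 intervals (coloured boxes, drawn to scale in width) along the 12 apoptosis genes that have one, as the distance in kb from the 5′ end of the gene (x axis), or from the high-coordinate end for TRADD. Grey lines are the genes, an arrow marks a gene that runs on past 16 kb, and colour gives the score; CASP9, CYCS, ENDOG, BIRC6, TRADD and RIPK1 have boxes at the left end, and the BAD interval is 13000 bp along the gene.

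Of the 5 IAP genes among the members, BIRC6 had an interval and the other 4 had none. BIRC6 encodes a very large IAP protein with ubiquitin-conjugating activity. The BIRC6 interval, on chromosome 2 from 32356674 to 32357097, was the widest among the members, with 424 bp, had a score of 42 (percentile 77.2) and spanned the start at 32357023. BIRC6 was also the longest member, with 261856 bp, and no further interval was found along it. Those without one were XIAP, BIRC2, BIRC3 and BIRC5 (survivin). BIRC3 and BIRC2 lie 7810 bp apart, and the nearest interval, in YAP1, was 206694 bp from BIRC3.

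In the extrinsic route, the interval with the highest score among the members was found at RIPK1. RIPK1 encodes a kinase that decides between survival signalling and cell death downstream of tumour necrosis factor receptors. The interval on chromosome 6 from 3064012 to 3064330 was 319 bp wide, had a score of 47 (percentile 83.8, rank 767 of 5019) and began 45 bp downstream of the gene's start. TNFRSF1A encodes tumour necrosis factor receptor 1. The receptor gene had an interval on chromosome 12 from 6336391 to 6336689, which scored 41 (percentile 76.4) and lay inside the gene, with its middle 5536 bp downstream of the start. This was the highest score among the member intervals away from gene ends, and no interval was found at the start of TNFRSF1A.

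TRADD encodes the adaptor that joins this receptor to RIPK1. It had a pair of intervals at its high-coordinate end on chromosome 16. The interval from 67159336 to 67159609 was listed on 2 lines with scores of 27 and 17. The interval from 67159673 to 67160054 was listed on 4 lines, of which 2 had a score of 27 and 2 a score of 13. The latter also spanned the low-coordinate end of FBXL8, a neighbouring gene for an F-box protein, so the intervals cannot be given to TRADD alone. The other genes of this role, FAS, FASLG, FADD, CFLAR, TNFRSF10A and TNFRSF10B, had no interval.

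The scores of the members were then set beside the rest of the list. The 15 member intervals had a median score of 28, with a range from 13 to 47, compared with 30 for all intervals, and 7 of them were above that median. The 9 intervals at an end of their member gene had a median of 37, against 32 (quartiles 25 and 43) for the 3142 intervals at an end of any protein-coding gene. The 6 intervals in the body of their member gene had a median of 24.5, against 28 (quartiles 22 and 37) for 1299 body intervals of all genes. These classes are not quite alike, since the BAD and DIABLO intervals were in the body of the member but within 1 kb of an end of another protein-coding gene. With a score of at least 20, 10 members had an interval (21.3%), compared with 17.4% of all genes, and BMF and BBC3 dropped out. With a score of at least 30, it was 6 members (12.8%), compared with 12.1% of all genes. The 6 were CASP9, CYCS, DIABLO, BIRC6, TNFRSF1A and RIPK1. No BH3-only gene was among them, but the 8 BH3-only genes are too few to compare with the share of 12.1%.

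**Figure D3:**
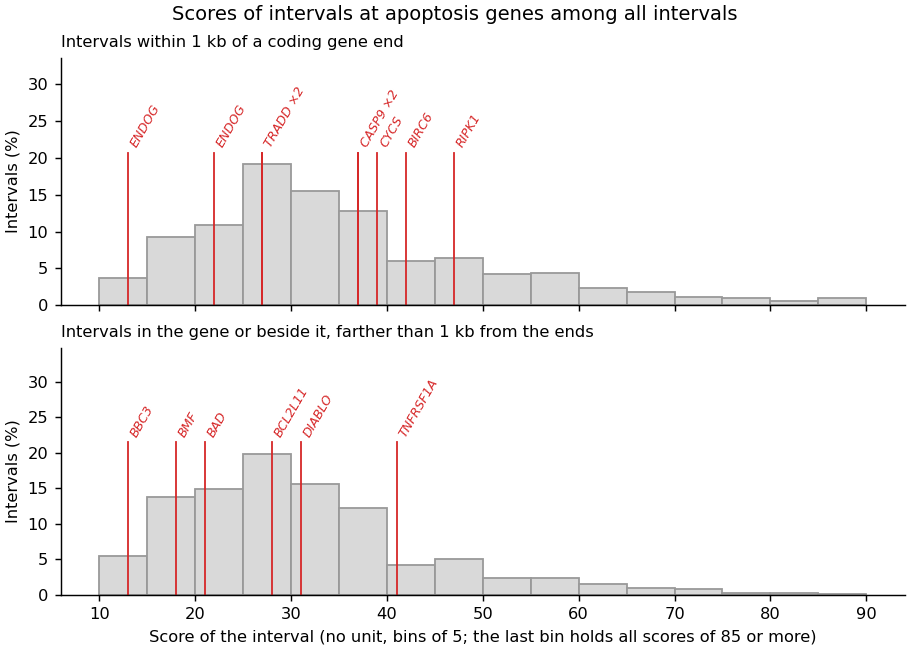
Scores of all intervals at a protein-coding gene end (top, grey bars) and in a gene body (bottom, grey bars) as percent of the intervals in each class, with the member intervals as red lines placed by their position in the member gene. The member intervals lie between 13, which is the lowest score in the list, and 47, with RIPK1 the highest at gene ends and TNFRSF1A the highest in gene bodies.

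Where the strand was known from the promoter table, starts and far ends were compared. Among the 33 members longer than 5 kb with a known strand, 4 had an interval within 1 kb of the gene's start (12.1%, 4.82% to 27.3%), and the share over all such genes was 16.4%. At the far end, none of the 33 had an interval within 1 kb, which allows a share of up to 10.4% by the Wilson interval, and over all such genes it was 1.04%. When every annotated start site was used, 6 of 37 members had an interval within 1 kb of one (16.2%, 7.65% to 31.1%), compared with 16.5% of the 15843 protein-coding genes in the promoter table. These were BIRC6, CASP9, CYCS, DIABLO, ENDOG and RIPK1, and 6 intervals, of which CASP9 had 2, spanned a start site. The members not in the promoter table were BCL2L2, MCL1, BIK, CASP1, CASP10, BIRC5, TNFRSF10A, TNFRSF10B, TRADD and DFFB.

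**Figure D4:**
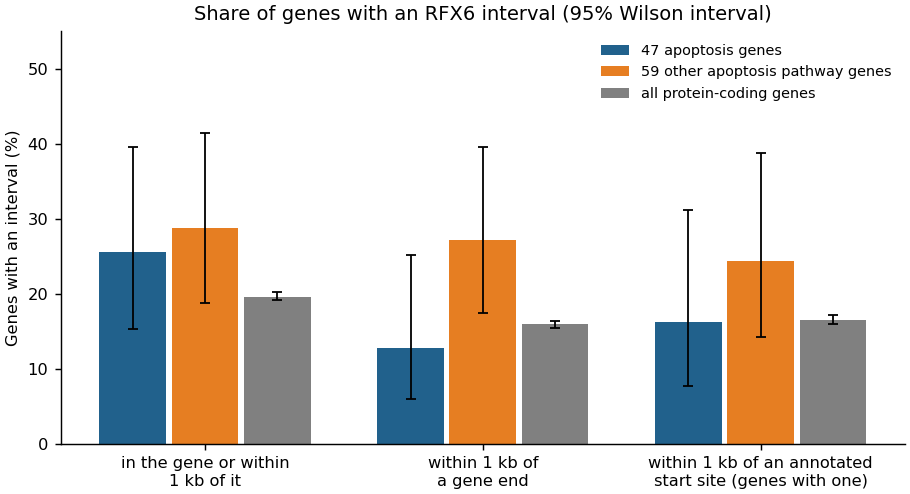
Percent of genes with an interval (y axis) under 3 definitions (x axis) for the 47 apoptosis genes (blue), 59 other apoptosis pathway genes (orange) and all protein-coding genes (grey), with 95% Wilson intervals of the counting of genes as error bars. The blue bars, at 25.5%, 12.8% and 16.2%, have error bars that include the grey bars at 19.6%, 15.9% and 16.5%.

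Since a long gene offers more room for an interval, gene length was also considered. The members had a median length of 21920 bp, compared with 24115 bp for all protein-coding genes. The members with an interval were shorter, with a median of 17336 bp, than those without, with 25298 bp. All genes were ordered by length and divided into 4 classes of equal number. In the class of shortest genes, up to 8538 bp, 3 of 11 members had an interval, against 13.3% of all genes in that class. In the next class, up to 24115 bp, it was 5 of 14, against 19.4%. Among longer genes, 3 of 18 members of up to 65132 bp had an interval, against 23.3%, and 1 of 4 members above that length, against 22.5%.

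For members without an interval, the distance to the nearest one was examined. Just outside the limit of 1 kb was DFFA, which encodes the inhibitor of the apoptotic nuclease DFFB. An interval with a score of 30 lay 2280 bp from it and inside PEX14. Next were BAK1, an effector, with an interval of score 17 at 4421 bp, and BCL2L2, a prosurvival gene, with an interval of score 34 at 4600 bp and inside PPP1R3E. Just inside the limit, no member depended on the flanking 1 kb, since all 12 had an interval that overlapped the gene itself. For gene ends, the closest cases on the outer side of 1 kb were DIABLO (1311 bp), BCL2L11 (1608 bp) and BAD (1626 bp). On the inner side, the interval nearest to the limit was 1 of the 2 at CASP9 (461 bp). The other CASP9 interval lay 68 bp from the same end, so CASP9 itself was not near the limit.

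Of the 35 members without an interval, 7 had one within 25 kb, and the median distance was 206694 bp. The same distances were not measured for other genes without an interval. They are therefore not read as a trait of the members. BCL2 itself was 3983590 bp from the nearest interval, on chromosome 18, which held 49 intervals for the whole chromosome. Neighbouring members CFLAR, CASP10 and CASP8 on chromosome 2 lie 6453 and 4056 bp apart, and the nearest interval was 746223 bp from CASP8. BCL2L13 and BID lie 3282 bp apart on chromosome 22, and the nearest interval was 1943225 bp from BID. The largest distance, 8316662 bp, belonged to CASP6 on chromosome 4, which held 57 intervals. XIAP and AIFM1 are on chromosome X, which held 25. Without read counts, an absent interval cannot be told from one that was missed for lack of reads.

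**Figure D5:**
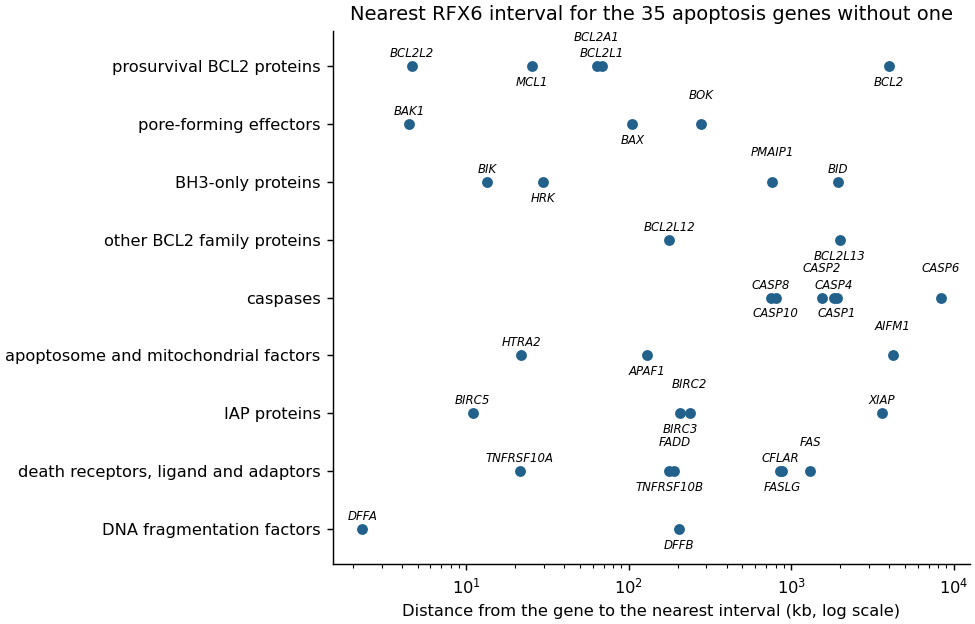
Distance in kb (x axis, log scale) from each of the 35 apoptosis genes without an interval to the nearest interval of the list, by role (y axis), with 1 point for each gene. DFFA, BAK1 and BCL2L2 are the closest, at 2280, 4421 and 4600 bp, and CASP6 is the farthest, at 8316662 bp.

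Finally, 59 further genes of the apoptosis pathway, taken from a separate list, were inspected. Of these, 17 had an interval (28.8%, 18.8% to 41.4%), and 16 had it within 1 kb of a gene end (27.1%, 17.4% to 39.6%), compared with 19.6% and 15.9% of all protein-coding genes. Within 1 kb of an annotated start site it was 11 of 45 (24.4%, 14.2% to 38.7%), compared with 16.5%. The background lay outside the interval for gene ends and inside it for the other two shares. These genes, like the members, were chosen with earlier results of these data known, so nothing is read from this. The highest scores belonged to PDCD6, TRAF2 and PIDD1. PDCD6 encodes a calcium-binding protein, and an interval on chromosome 5, from 271382 to 272007, scored 95 there. TRAF2 encodes an adaptor of the tumour necrosis factor receptor complex, and its interval (chromosome 9, 136882249 to 136882492) scored 84. PIDD1 encodes a scaffold for caspase-2, and the higher of its 2 intervals, on chromosome 11 from 808976 to 809815, scored 56. All 3 were at a gene end, and their scores were above the highest score among the 47 members, 47. The others with an interval were BAG1, TNFAIP8, VDAC1, BAG6, BNIP3, MAP3K5, PARP1, BAG3, ACIN1, DAPK3, BIRC7, BAG4, TNFRSF25 and BNIP3L.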

How the data were processed

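MHCC-97H cells with HA-tagged RFX6 were fixed with formaldehyde, and sonicated chromatin was precipitated with an anti-HA antibody. The authors called peaks with MACS 2.1.0.2. The aligner is not given in the sources used here. The submitters' processing notes name GRCh37, but the deposited positions were taken as those of GRCh38. In the GRCh38 table, 60.8% of interval midpoints lay within 1 kb of a protein-coding gene end. After a move by 20 kb to either side, it was 8.11% and 7.65%. Gene positions of GRCh37 were not compared. The authors deposited 1 headerless list with a whole-number score for each peak and no counts, so depth per sample is unknown.

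The 6214 lines gave 5022 distinct intervals, each with its highest score. In 1 line, split digits were joined. Starts were taken as 0-based and are given 1-based. The 3 mitochondrial intervals were left out. Genes came from RefSeq, and start sites and strands from its promoter table. The 47 members and the other gene list were chosen with earlier results of these data known. All members with an interval were named, and of the other list all with an interval, the 3 highest scores with values. With 1 ChIP library no test between samples was made. Shares were given with 95% Wilson intervals. Gene assignment was tested on planted intervals. Alternatives were score minimums, overlap rules, windows, merging and assignment to the nearest gene end. Python 3.11.15, numpy 2.4.6, pandas 2.3.3, scipy 1.17.1 and matplotlib 3.10.9 were used.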

Additional observations from a re-analysis of the deposited data

How the results depend on the processing

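The values for the 47 genes were recomputed under 8 alternatives, namely score minimums of 20 and 30, an overlap by the midpoint or by 50% of the interval in place of 1 bp, a window of 2 kb, the gene body alone, merged intervals and the nearest gene end. Of 54 recomputed values, 52 were within 1.5 times the main count, or within the counting interval of the main share or median. With a score of at least 30, the members with an interval went from 12 to 6 and their intervals from 15 to 7, as fewer intervals were counted. The ratio of the members' share to the background share was 1.3 and ranged from 1.05 (score of at least 30) to 1.54 (gene body alone). At gene ends, the ratio was 0.803 and below 1 in all alternatives run except the window of 2 kb, where it was 1.1 with 9 members. By the nearest gene end, BAD and DIABLO were lost. No paired analysis was possible because the series has a single ChIP library, and for the same reason no replicate could be left out. Depth limits the absence of intervals, which is not absence of binding.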
